A study of Mus musculus with 6 samples.

Results

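The 10 genes described here encode members of the BCL2 family, which sets the threshold at which a cell undergoes mitochondrial apoptosis. They were taken by name (Bcl2, Bcl2l1, Mcl1, Bax, Bak1, Bbc3, Bcl2l11, Bid, Bad and Pmaip1), and all 10 were among the 34981 genes of the deposited table. RNA came from spheroids of B16F10, an established melanoma line from a C57BL/6 mouse, embedded in Matrigel, an extract of basement membrane. Over 10 days they received BMP2 protein at 100 ng/ml or PBS, the vehicle. The sample labels call the PBS cultures untreated. The experiment was carried out 3 times, and each of the 3 batches holds 1 BMP2 and 1 PBS culture, so n = 3 per group. The same cell line, gel and time are shared by both groups, and neither group carries a genetic change according to the labels. Both rest on 1 cell line, and p values measure the spread between these cultures alone. The comparison asks whether the ligand shifts the transcripts of survival and death genes.

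In the BCL2 family, survival proteins such as BCL2, BCL-XL (from Bcl2l1) and MCL1 hold the effectors BAX and BAK in check at the outer mitochondrial membrane. The BH3-only proteins, a further class, sense stress and bind either the survival proteins or the effectors. Freed effectors permeabilise the membrane, cytochrome c escapes and caspases are activated. In melanocytes and melanoma, Bcl2 is known as a target of the lineage factor MITF, and reliance on MCL1 and BCL-XL is a known feature of melanoma cells. Much of the control of these proteins is exerted after transcription, by phosphorylation, cleavage and turnover, which messenger RNA levels do not show.

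Libraries held 27821911 to 36856498 estimated counts. PBS 1 lay far from the rest on principal component 1 (-79.7, the other 5 libraries -16.8 to 55.5). The component rose from batch 1 to batch 3 in both groups. Values were -16.8, 24.1 and 55.5 for BMP2 and -79.7, -4.85 and 21.8 for PBS. PBS 1 also had the lowest TMM scaling factor, 0.872, and pseudogenes took 2.81% of its counts where the others had 1.83% to 2.37%. Fold changes of named members, list genes and markers that change sign or move by over 1.5 times without PBS 1 are given both ways. Leaving out PBS 1 alone leaves BMP2 1 without its batch partner, so values without PBS 1 can also reflect batch. Melanocytic markers were high in every library, with 28870 to 39070 TMM-scaled CPM (counts divided by the scaled library size) summed over 7 genes with BMP2 and 23669 to 26310 with PBS. All 7 were higher with BMP2 in all 3 batches, as were 22.7% of all tested genes. Their median log2 fold change was 0.48 (Mlana 0.92, Tyr 0.86, and 0.49 for Tyr without PBS 1). Of these 7 genes 0 passed in edgeR with or without the block. Their part in the results on Bcl2 and Bcl2l1 was not tested. Markers of fibroblasts (6 genes) summed to 3.12 to 5.31 against 4.38 to 8.52 CPM, those of endothelium (5 genes) to 0.724 to 2.16 against 1.05 to 1.76, and those of leukocytes (6 genes) to 2.15 to 3.22 against 3.74 to 5.01. Ptprc and Cd3e of leukocytes were at no more than 0.0976 CPM, and Krt14 and Epcam reached at most 0.0599 and 0.0342 CPM. Cdh5 and Tek of endothelium had 0 counts in all 6 libraries. Pecam1, the endothelial marker tested, was at 0.724 to 2.02 CPM on 29 to 59 counts per library. Its direction differed between batches. Pdgfra (fibroblasts) and Cd68 (leukocytes) were the most abundant of these, at 1.66 to 7.32 and 2.02 to 4.91 CPM. Both were lower with BMP2 in all 3 batches, and their part in the results below was not tested. Col1a1, the other fibroblast marker tested, differed in direction between batches, at 0.822 to 1.80 CPM with BMP2 and 1.17 to 1.32 with PBS. Its log2 fold change was 0.11 (SE 0.44), or 0.070 without PBS 1. Col1a2, Col3a1, Dcn and Lum had 0 to 2 counts per library. In bulk RNA, fewer cells of a type and less RNA per cell cannot be told apart.

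The survival genes Bcl2 and Bcl2l1 and the BH3-only gene Bbc3 had the smallest p values of the family. In edgeR's quasi-likelihood test on treatment alone, with Benjamini-Hochberg adjustment over the 12929 genes tested and a threshold of 0.05, 0 of the 9 tested members passed. In that fit 6 genes passed among all tested (0.0464%), of which 1 was higher (0.00773%) and 5 were lower (0.0387%) with BMP2. At an unadjusted p under 0.05 stood 3 of the 9 members, against 5.38% of all genes. DESeq2's Wald test called 2 members, Bcl2 and Bcl2l1, both higher, where it called 1.01% of all genes, 0.48% higher. Limma-trend after quantile normalization called 0 members and 0.0696% of all genes. With batch as a block, which compares the 2 cultures of each batch, edgeR called 1 of the 9, Bcl2l1, which rose; 0.735% of all genes passed, 0.371% higher and 0.364% lower. The tenth member, Pmaip1, had no count and was not tested. The median log2 fold change of the 9 was 0.07, against 0.01 for all tested genes.

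**Figure D1:**
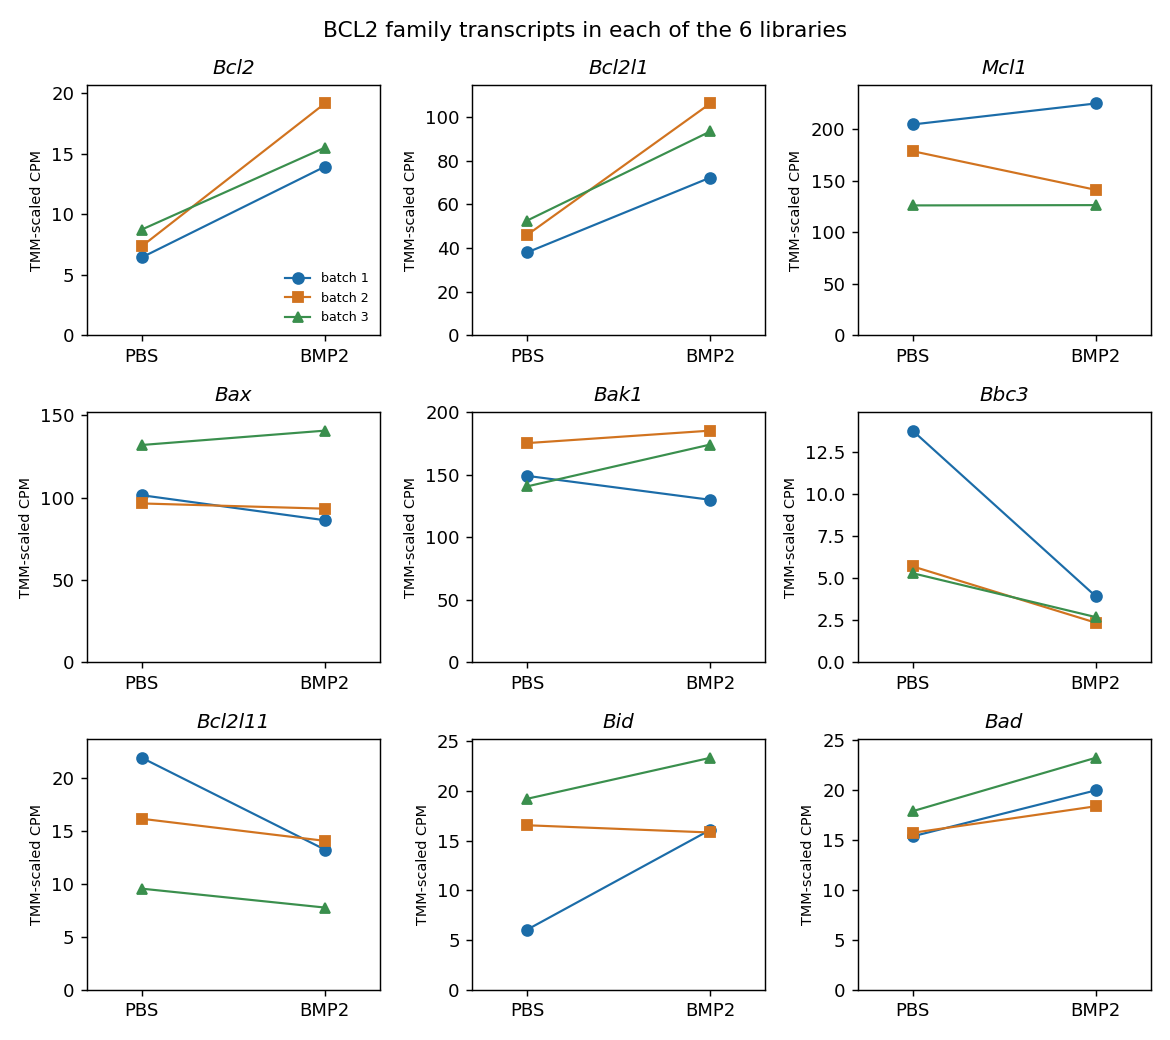
TMM-scaled CPM (linear axis from 0) of the 9 detected members in PBS and BMP2 libraries, where each line joins the 2 cultures of 1 batch. All BMP2 points of Bcl2, Bcl2l1 and Bad lie above all PBS points and those of Bbc3 lie below, while the other 5 genes overlap.

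Among the survival genes, Bcl2l1 encodes BCL-XL, which binds BAX, BAK and BH3-only proteins. The gene (ENSMUSG00000007659, chr2:152780668-152831728 on GRCm38, minus strand) was at 72.3, 106 and 93.5 CPM with BMP2 in batches 1, 2 and 3 and at 38.0, 46.1 and 52.6 with PBS. Every BMP2 library was above every PBS library, with log2 differences by batch of 0.93, 1.21 and 0.83. The fitted log2 fold change was 0.99 (SE 0.22, 95% interval 0.49 to 1.49), about 1.99-fold, with an edgeR adjusted p of 0.330 without the block. With batch as a block it was 0.99 (SE 0.13, 95% interval 0.67 to 1.3) at an adjusted p of 0.0363. This blocked call was lost without batch 2, at an adjusted p of 0.226 and a log2 fold change of 0.88, while 8 of 9 fits with the block passed. Those 9 fits share libraries and include the fits that leave out a batch. Bcl2l1 shared 0.0214% of its 31-base words with transcripts of other genes.

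Bcl2 (ENSMUSG00000057329, chr1:106538178-106714274, minus strand), the founding survival gene of the family, showed a like difference at a lower level. Its CPM was 13.9, 19.2 and 15.5 in the BMP2 libraries of batches 1, 2 and 3 and 6.44, 7.36 and 8.74 in the PBS libraries. The groups did not overlap, and the log2 differences by batch were 1.11, 1.38 and 0.83. The fitted log2 fold change was 1.11 (SE 0.24, 95% interval 0.55 to 1.66), about 2.15-fold, and the edgeR adjusted p was 0.330 without the block and 0.0715 with it. DESeq2's Wald test gave it an adjusted p of 0.00443, the lowest of the fits without the block, which ranged up to 0.999. An antisense gene, D630008O14Rik, covers 558 of the 9157 exonic bases of Bcl2 and is not analysed here.

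Mcl1 encodes a short-lived survival protein. Its CPM was 225, 141 and 126 with BMP2 and 205, 179 and 126 with PBS. The groups overlapped, and both kinds of culture were highest in batch 1 and lowest in batch 3. The log2 fold change was -0.05 (SE 0.28, 95% interval -0.70 to 0.60, edgeR adjusted p 0.979), and the log2 fold change was 0.10 without PBS 1. With the block the interval was -0.41 to 0.28.

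The 250 bases that precede a RefSeq start of Bcl2, Bcl2l1 and Bbc3 are shown because these 3 genes had the smallest p values of the family. They are RefSeq sequences on GRCm38.p6, 5′ to 3′ on the strand of the gene, and for genes with several starts the window farthest upstream is given. The Bbc3 window lies inside the span given below for that gene, which begins farther upstream, and covers 0 bases of its annotated exons. Capitals mark matches to GGCGCC, a GC-rich element that BMP-activated SMADs can bind.
Bcl2 (chr1:106714291-106714540, minus strand): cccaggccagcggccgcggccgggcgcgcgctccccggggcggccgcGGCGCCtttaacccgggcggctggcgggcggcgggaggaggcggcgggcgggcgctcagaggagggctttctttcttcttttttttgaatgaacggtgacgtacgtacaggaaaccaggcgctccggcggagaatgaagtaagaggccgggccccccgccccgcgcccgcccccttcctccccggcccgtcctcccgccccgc
Bcl2l1 (chr2:152831729-152831978, minus strand): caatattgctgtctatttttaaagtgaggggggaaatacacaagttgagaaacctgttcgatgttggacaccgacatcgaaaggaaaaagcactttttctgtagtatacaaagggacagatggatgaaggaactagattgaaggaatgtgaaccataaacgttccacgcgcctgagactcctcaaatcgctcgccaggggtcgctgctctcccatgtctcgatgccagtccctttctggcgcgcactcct
Bbc3 (chr7:16309333-16309582, plus strand): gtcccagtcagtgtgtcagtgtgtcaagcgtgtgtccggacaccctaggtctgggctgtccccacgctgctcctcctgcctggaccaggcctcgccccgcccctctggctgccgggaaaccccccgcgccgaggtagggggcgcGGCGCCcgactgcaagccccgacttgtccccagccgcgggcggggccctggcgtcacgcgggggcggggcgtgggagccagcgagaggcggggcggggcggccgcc
The Bcl2 window holds 1 match, which begins 203 bases before the start, the Bbc3 window holds 1 at 106 bases, and the Bcl2l1 window holds 0. Over 32851 promoter windows of the same length, 9.59% held GGCGCC on either strand, and 4 of the 15 windows of the 9 members did, the 2 others with a match belonging to Bbc3 and Bcl2l11. The E-boxes CACGTG and CATGTG, of the kind bound by MITF, were found in none of the 3 printed windows when both strands were searched. Across all 15 windows CACGTG occurred in 2 (Bax and a downstream start of Bbc3) and CATGTG in 1 (a downstream start of Bcl2l1), against 6.02% and 12.3% of all windows. Some of the 15 lie in annotated exons of their own gene, among them the Bcl2l1 window with CATGTG, with all 250 bases. The windows of the downstream Bbc3 starts overlap each other. All these motif matches describe the letters of the windows only. The 2 GC-rich windows, of Bcl2 and Bbc3, had 74.8% and 76.4% G or C, and that of Bcl2l1 had 47.6%.

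The effectors Bax and Bak1 encode the proteins that open the outer mitochondrial membrane. Bax was at 86.4, 93.4 and 141 CPM with BMP2 and at 102, 96.6 and 132 with PBS in batches 1, 2 and 3. Both groups were highest in batch 3 and overlapped, with a log2 fold change of -0.04 (SE 0.24, 95% interval -0.60 to 0.52) that was -0.10 without PBS 1. Bak1 was at 130, 185 and 174 CPM with BMP2 and at 149, 175 and 141 with PBS, again with overlap. Its log2 fold change was 0.07 (SE 0.20, 95% interval -0.40 to 0.54), or 0.040 without PBS 1, and the edgeR adjusted p values of Bax and Bak1 were 0.979 and 0.958. The direction differed between batches for both genes. Bak1 shared 20.4% of its 31-base words with other genes, chiefly Ggnbp1 on the opposite strand, which was at 1.10 to 3.68 CPM.

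Among the BH3-only genes, Bbc3 encodes PUMA, a direct target of p53 that binds all survival members. The gene (ENSMUSG00000002083) lies at chr7:16308393-16318205 on the plus strand. Its CPM was 3.94, 2.36 and 2.70 with BMP2 and 13.8, 5.70 and 5.30 with PBS in batches 1, 2 and 3. Each BMP2 value was below all PBS values, and the log2 differences by batch were -1.81, -1.27 and -0.97. The fitted log2 fold change was -1.46 (SE 0.45, 95% interval -2.49 to -0.43), and the edgeR adjusted p was 0.690 without the block and 0.0846 with it, so Bbc3 did not pass in either fit. The library PBS 1 was the highest of the 6, and without it the log2 fold change was -0.88 (edgeR adjusted p 0.835; 0.110 to 1.000 over the fits without the block). None of the 31-base words of Bbc3 occurred in another gene.

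Bcl2l11 encodes BIM, a BH3-only protein that is restrained by ERK signalling. It was at 13.2, 14.1 and 7.76 CPM with BMP2 and at 21.9, 16.2 and 9.55 with PBS, lower with BMP2 in each of the 3 batches but overlapping between groups. The log2 fold change was -0.44 (SE 0.36, edgeR adjusted p 0.883), and -0.15 without PBS 1. Bid, whose protein links death receptors to mitochondria after cleavage by caspase 8, was at 16.1, 15.8 and 23.3 CPM with BMP2 and at 6.05, 16.6 and 19.2 with PBS. The low value of PBS 1 weighed on its log2 fold change, which was 0.40 (SE 0.41, edgeR adjusted p 0.889) and 0.04 without that library. Its exons overlap those of Bcl2l13 on the opposite strand (628 of 3550 bases), and Bcl2l13 was at 112 to 141 CPM in all libraries. The strand setting of the counting is unknown here, and reads in the overlap could belong to either gene if strand was ignored.

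Bad encodes a BH3-only protein that is held inactive by phosphorylation downstream of AKT. It was at 20.0, 18.4 and 23.2 CPM with BMP2 and at 15.4, 15.7 and 17.9 with PBS. The groups did not overlap, but the difference was small, with a log2 fold change of 0.33 (SE 0.20, edgeR adjusted p 0.883, and 0.332 with the block). Gpr137 on the opposite strand covers 524 of its 2558 exonic bases and had a log2 fold change of 0.01 (SE 0.23). Pmaip1, which encodes the BH3-only protein NOXA, had 0 counts in all 6 libraries, where 3 counts, the limit that a count of 0 allows, correspond to 0.0749 to 0.103 CPM. Of its 31-base words 0.399% occurred in other genes.

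**Figure D2:**
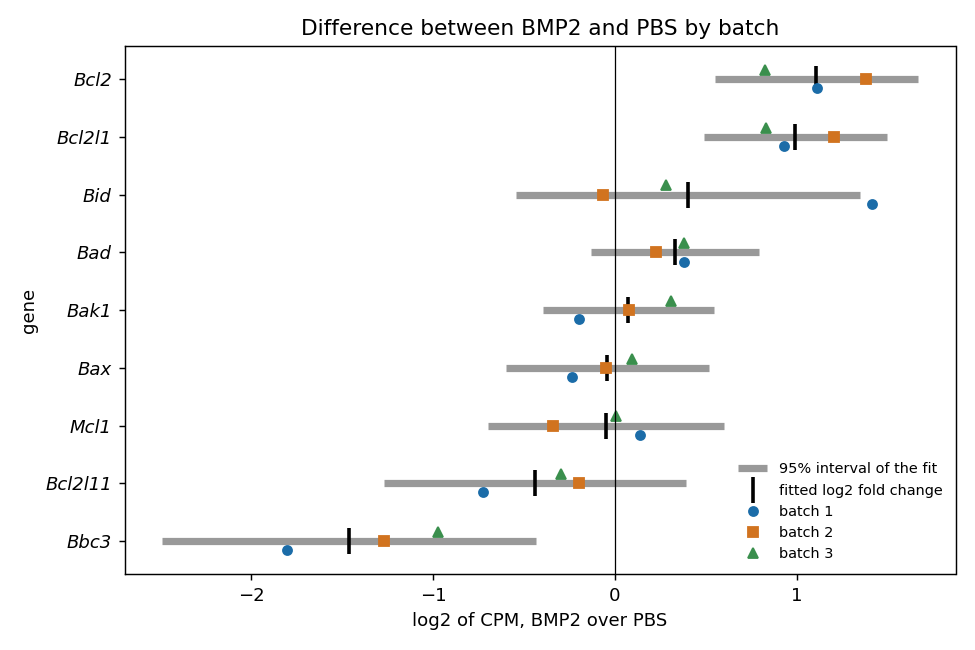
Log2 ratio of CPM, BMP2 over PBS, for the 9 detected members, with 1 symbol per batch, a tick at the fold change fitted without the block and a bar for its 95% interval. Bcl2 and Bcl2l1 lie between 0.83 and 1.38 in all batches and Bbc3 between -1.81 and -0.97, while the intervals of the other 6 genes include 0.

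Groups that do not overlap were found for 3 members with BMP2 above (Bcl2, Bcl2l1 and Bad) and for 1 with BMP2 below (Bbc3). Over all tested genes 12.1% did not overlap, 6.42% above and 5.72% below. Without PBS 1 the counts for the members were again 3 and 1, with 11.9% and 10.7% over all genes. Higher in all 3 batches were 3 members (22.7% of all genes) and lower in all 3 were 2 members, Bbc3 and Bcl2l11 (21.1%). Ranked by p without the block, Bcl2 was 68th, Bcl2l1 69th and Bbc3 210th of 12929 genes. With the block Bcl2 was 150th, Bcl2l1 63rd and Bbc3 201st.

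Levels of different genes were compared as CPM per kilobase of annotated exon. Bax and Bak1 were the most abundant, at 69.8 ± 12.2 and 64.5 ± 7.5 with PBS and 67.8 ± 18.8 and 67.8 ± 12.2 with BMP2 (SD, n = 3). Mcl1 followed at 49.7 ± 11.7 with PBS and 48.0 ± 15.6 with BMP2, and Bcl2l1 was next at 9.94 ± 1.59 and 19.8 ± 3.7. Then came Bad (6.38 ± 0.53 and 8.02 ± 0.97), Bid (3.93 ± 1.96 and 5.19 ± 1.2) and Bbc3 (3.89 ± 2.25 and 1.41 ± 0.39). Bcl2l11 (1.98 ± 0.77 and 1.46 ± 0.43) and Bcl2 (0.821 ± 0.126 and 1.77 ± 0.29) were the lowest of the detected members. Of these neighbours in the order over all 6 libraries, Mcl1 and Bcl2l1 were the 1 pair whose libraries did not overlap. With the longest annotated transcript as length, this pair overlapped too. Bbc3 ranked 7th with PBS and 9th with BMP2, and Bcl2 ranked 9th and 7th, although neighbours among the lowest 3 (Bbc3, Bcl2l11 and Bcl2) overlapped in level over the 6 libraries.

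**Figure D3:**
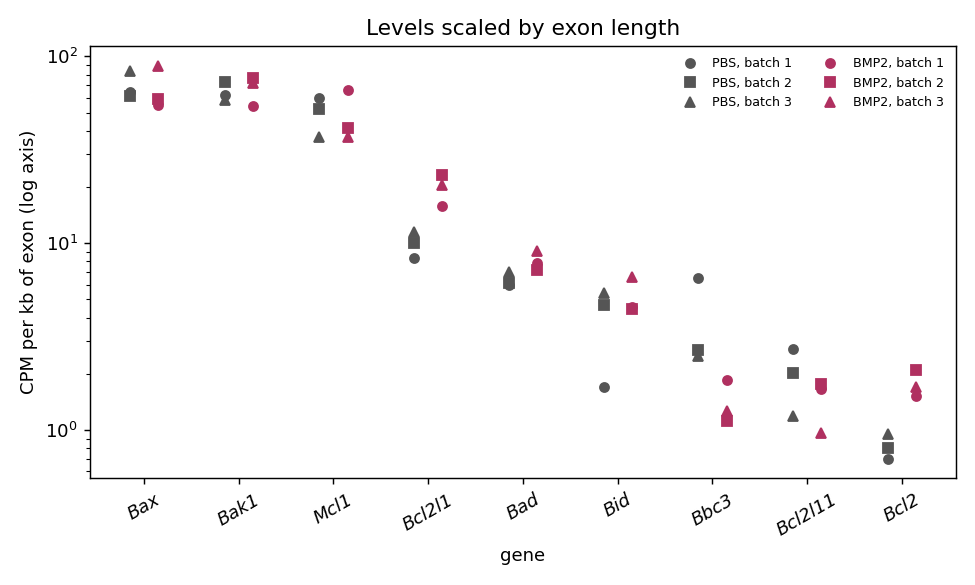
CPM per kilobase of exon (log axis) of the 9 detected members in each library, ordered by the mean over all 6, with colour for the group and symbol for the batch. Bax, Bak1 and Mcl1 sit above all other members, and Mcl1 is separated from Bcl2l1 by a gap with no library in it.

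Among the 3 survival transcripts, Mcl1 made up most of the sum per kilobase of annotated exon in every library. The shares depend on that length, as Bcl2l1 has 4586 exonic bases but a longest transcript of 2568. Mcl1 has 3418 for both. With the longest transcript as length, Mcl1 and Bcl2l1 overlapped in level, and shares by that length are not given here. By exon length the share of Mcl1 was 79.2%, 62.1% and 62.6% with BMP2 and 86.9%, 82.8% and 74.8% with PBS in batches 1, 2 and 3. The share of Bcl2l1 was 19.0%, 34.8% and 34.5% with BMP2 and 12.0%, 15.9% and 23.3% with PBS, higher with BMP2 in each batch though the groups overlapped. That of Bcl2 was 1.83%, 3.14% and 2.87% against 1.02%, 1.27% and 1.94%. The log2 ratio of the summed effectors Bax and Bak1 to the 3 survival genes was 0.39, 1.03 and 1.45 with BMP2 and 0.88, 1.09 and 1.53 with PBS. The differences by batch were -0.49, -0.05 and -0.08, with a mean of -0.21. The difference of the group means was 0.079 without BMP2 1, -0.35 without PBS 1, -0.45 without BMP2 3 and -0.023 without PBS 3. Leaving out 1 library breaks the pairing by batch, and the ratio rose from batch 1 to batch 3 in both groups. The sign and size of this unpaired difference thus rest on single libraries, while the size of the paired differences, all negative, varied between batches. The ratio of Bax alone to Bcl2 alone, which leaves out Mcl1, was 5.17, 4.82 and 5.72 against 6.52, 6.25 and 6.46 on the log2 scale, with no overlap and a mean difference of -1.17. With Mcl1 left out of the survival sum and both effectors kept, the log2 ratio was 2.65, 2.43 and 2.87 with BMP2 and 3.81, 3.63 and 3.52 with PBS. These groups did not overlap, and their means differed by -0.9997.

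**Figure D4:**
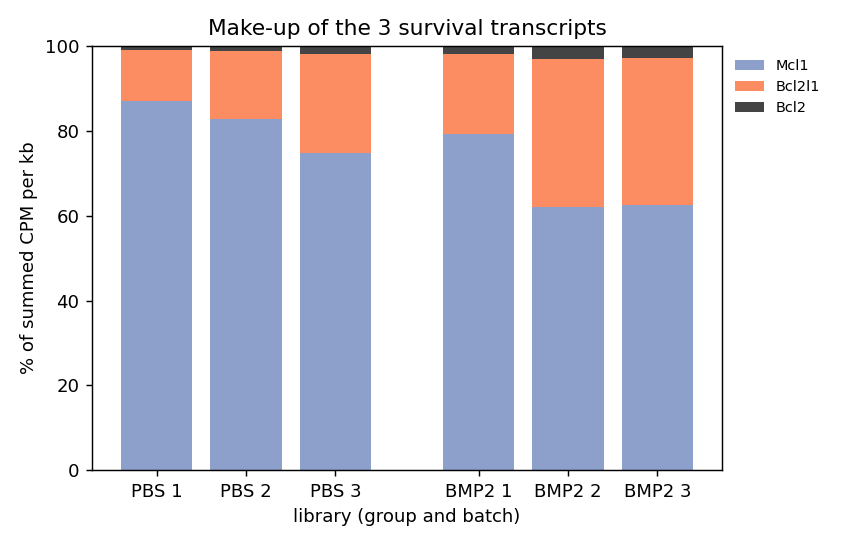
Share of Mcl1, Bcl2l1 and Bcl2 in the summed CPM per kilobase of annotated exon of these 3 survival genes. Stacked bars (0 to 100%) show each library. Mcl1 takes 74.8% to 86.9% in PBS libraries and 62.1% to 79.2% in BMP2 libraries, and Bcl2 is at most 3.14%.

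Bcl2 was the member with the smallest p in edgeR without the block. The genes whose values over the 6 libraries were most like those of Bcl2 were sought among 12087 tested protein-coding genes. Likeness was the root-mean-square difference of log2(CPM + 0.1), each gene centred on its mean. The closest was Bcl2l1, at 0.0871 where Bcl2 itself ranged over 1.56. Next came Nap1l3 (0.0974), Mfsd13b (0.1), the serpin gene Serpini1 (0.104) and the peroxisomal gene Pex11g (0.111). Nap1l3 and Mfsd13b were low, at 0.195 to 0.672 and 0.0976 to 0.409 CPM, where the added 0.1 CPM narrows the range. These 6 libraries share 3 batches, and the measure describes them alone.

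The wider pathway was covered by 6 lists with 79 entries, of which 76 were in the table and 66 were tested. In edgeR 0 of the 66 passed with or without the block, 6 had an unadjusted p under 0.05, and DESeq2's Wald test and limma-trend without the block also called 0. Groups did not overlap for 5 genes with BMP2 above and 6 with BMP2 below (7.58% and 9.09%, against 6.42% and 5.72% of all tested genes).

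Of 7 other BCL2 family genes tested, the median log2 fold change was -0.17. Bcl2l2, which encodes the survival protein BCL-W, was at 30.8, 25.0 and 21.5 CPM with BMP2 and 46.6, 27.7 and 24.4 with PBS, with a log2 fold change of -0.35 (SE 0.29) that was -0.024 without PBS 1. Bok, an effector-like member, was at 0.250 to 0.274 CPM with BMP2 and 0.389 to 0.878 with PBS, with no overlap, on 8 to 31 counts per library. Bnip3l, a mitophagy receptor, had a log2 fold change of -0.40 (SE 0.34), or -0.24 without PBS 1. The survival genes Bcl2a1a, Bcl2a1b and Bcl2a1d, near-identical copies of a gene that MITF is known to drive in human melanoma, had 0 counts in all 6 libraries.

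Downstream of the mitochondrion, 15 genes were tested, with a median of -0.07. In all 3 batches 6 were lower with BMP2 and 2 higher, against 21.1% and 22.7% of all tested genes. The channel genes Vdac1 and Vdac2 of the outer membrane stood at -0.80 (SE 0.36) and -0.41 (SE 0.20) on the log2 scale, each with groups that did not overlap. VDAC2 is known to recruit BAK and BAX to mitochondria. Cycs, which encodes cytochrome c, was at 330, 332 and 290 CPM with BMP2 and 514, 340 and 358 with PBS (log2 fold change -0.35, SE 0.22, and -0.14 without PBS 1). Apaf1, the scaffold of the apoptosome, had a log2 fold change of -0.68 (SE 0.34), with 78.9 CPM in PBS 1 against 27.9 to 40.4 in the other 5 libraries, and -0.20 without it. Diablo, whose protein relieves caspases from their inhibitors, was higher with BMP2 in all 3 batches, at 49.8 to 58.8 against 29.2 to 43.6 CPM (0.59, SE 0.21). The initiator caspase gene Casp9 had a log2 fold change of -0.07 (SE 0.32), or -0.31 without PBS 1. Within batches 1, 2 and 3 its log2 differences were 0.06, -0.10 and -0.11. The edgeR adjusted p values of these 6 genes were 0.832 or higher.

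Among 7 inhibitor of apoptosis genes the median was 0.04. Xiap, a direct caspase inhibitor, was at 109, 96.4 and 94.9 CPM with BMP2 and 67.5, 77.6 and 93.3 with PBS (log2 fold change 0.33, SE 0.19, and 0.22 without PBS 1). Naip5, an inflammasome sensor of the same family, was at 0.325 to 0.380 CPM with BMP2 and at 0 to 0.120 with PBS, on 0 to 13 counts per library. Xaf1, an antagonist of XIAP, had a log2 fold change of 0.48 (SE 0.56). Of 8 death receptor genes, 4 were higher in all 3 batches and 1 was lower (22.7% and 21.1% of all tested genes), with a median of 0.21. Fadd, the adaptor of death receptors, was at 16.8, 29.9 and 43.2 CPM with BMP2 and 4.59, 18.5 and 29.8 with PBS (0.76, SE 0.61, and 0.31 without PBS 1). Casp8 and Tradd had log2 fold changes of 0.30 (SE 0.18) and 0.23 (SE 0.24), the latter 0.058 without PBS 1.

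For p53 and its targets, 16 genes were tested, with a median of 0.22. In all 3 batches 7 were higher and 4 lower, against 22.7% and 21.1% of all tested genes. Trp53 itself, which encodes p53, was at 48.7, 64.8 and 91.1 CPM with BMP2 and 83.2, 103 and 93.5 with PBS (log2 fold change -0.45, SE 0.25). Its targets differed in sign, with 0.93 (SE 0.32) for Phlda3, 0.73 (SE 0.32) for Ccng1 and 0.28 (SE 0.21) for Mdm2. Cdkn1a stood at -0.25 (SE 0.34), or -0.50 without PBS 1, with log2 differences by batch of -0.35, -0.12 and -0.34. Bbc3, also a p53 target, stood at -1.46 as given above, while Bax, another, stood at -0.04. Among 13 regulators of BCL2 family transcription and turnover the median was -0.06. Mitf, the melanocyte lineage factor, was at 310, 265 and 319 CPM with BMP2 and 189, 207 and 202 with PBS, without overlap (0.58, SE 0.18, edgeR adjusted p 0.687, and 0.142 with the block). Trim39 and Foxo3, a ubiquitin ligase gene and a forkhead factor that can drive Bcl2l11 and Bbc3, had log2 fold changes of 0.44 (SE 0.24) and -0.47 (SE 0.26).

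**Figure D5:**
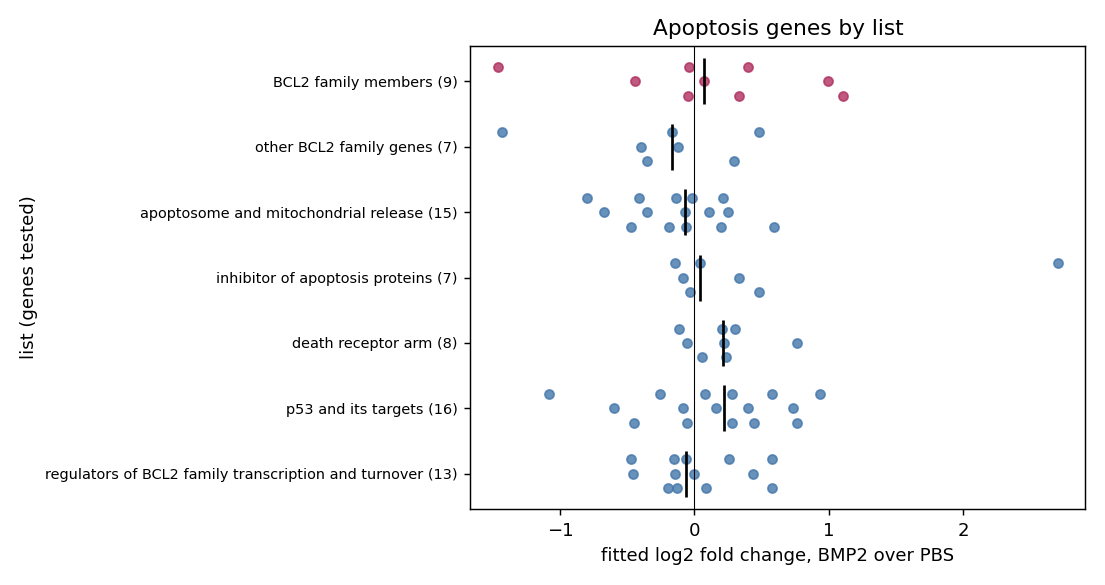
Fitted log2 fold changes, BMP2 over PBS, of every tested gene in the BCL2 family and in 6 further apoptosis lists, with 1 point per gene (spread vertically for legibility) and a tick at the list median. Medians lie between -0.17 and 0.22, and 0 of these genes passed in edgeR without the block.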

How the data were processed

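RNA sequencing data of 6 B16F10 spheroid cultures (3 BMP2, 3 PBS) were used. The authors deposited estimated counts per Ensembl gene, and per the submitters' processing notes kallisto 0.44.0 and GRCm38.p6 were used. For the annotation release, strand setting and transcript-to-gene step, the sources used here give nothing. Identifiers were matched to GENCODE M21 (34679 of 34981 genes).

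Counts were rounded and tested with edgeR 4.0.16 (R 4.3.3; default count filter, TMM scaling, quasi-likelihood test, treatment alone, threshold 0.05). SE and 95% intervals were worked back from the F statistic. CPM are TMM-scaled, and 3 counts are taken as the limit that a count of 0 allows, which covers counting error only. The replicate number marks a shared batch in the labels, and deviations from group means correlated at 0.51, 0.25 and 0.52 within batches 1, 2 and 3, so batch was also fitted as a block. That fit leaves 2 residual degrees of freedom instead of 4.

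Alternatives were DESeq2 1.42.0, limma 3.58.1, other count filters and scaling, and leaving out each library or batch. Combinations with the block, group overlap and pathway genes without PBS 1, and effector ratios without 1 library or Mcl1, were added after the data were seen. Scripts were tested on simulated data. Exon overlaps, 31-base words shared with other genes and promoter motifs were counted with Python 3.11.15. Named were all members, up to 3 genes with the smallest p per further list, and a fixed set (Bcl2l2, Casp9, Apaf1, Cycs, Trp53, Mdm2, Cdkn1a, Mitf, and 1 gene that is not reported here). Overlapping neighbours, marker genes and genes with 0 counts were named after their values were seen. Members and lists were chosen with earlier results of these data known. 3 listed genes of the wider pathway are not analysed here.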

Additional observations from a re-analysis of the deposited data

How the results depend on the processing

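With the replicate block (pairing by batch), edgeR called 95 genes instead of 6, 1 member instead of 0 (Bcl2l1) and 0 further pathway genes. DESeq2's Wald test called 130 genes and 2 members, and edgeR without a count filter 35 genes. Leaving out 1 library gave 2 to 10 genes, and leaving out batch 1, 2 or 3 gave 14, 3 and 2, each with 0 members. Combined with the block, leaving out batch 1, 2 or 3 gave 531, 27 and 218 genes, 2, 0 and 3 members, and 5, 0 and 2 further pathway genes. The block with DESeq2 size factors gave 98 genes, with limma-trend 116 and with a mean of at least 100 counts 111, each with 1 member. With DESeq2's Wald test it gave 653 genes, 3 members and 7 further genes, and without a filter 500, 3 and 6. The cause of these shifts was not tested. Fits without a library or batch hold fewer samples, and other count filters change the gene set.

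Over 23 alternatives Bcl2, Bcl2l1 and Bbc3 kept their direction, with log2 fold changes of 0.96 to 1.26, 0.85 to 1.13 and -1.70 to -0.88, passing in 5, 9 and 3. These alternatives share libraries and are not separate evidence. Mcl1, Bax and Bak1 changed sign. Mcl1 was 0.0041 with limma-trend with and without the block, 0.091 without batch 2 (0.074 with the block) and -0.34 to 0.10 over single left-out libraries. Bax was 0.025 without batch 1 (0.015 with the block) and -0.30 to 0.11 over left-out libraries, and Bak1 was -0.042 without batch 3 (-0.060 with the block) and -0.039 to 0.21. Bax over Bcl2 alone differed by -1.17 where the summed ratio differed by -0.21 (-0.9997 with Mcl1 left out, -0.45 to 0.079 over left-out libraries). With the longest transcript as length, Mcl1 and Bcl2l1 were no longer separated. By that length 2 other neighbouring pairs were, Bax over Bak1 and Bad over Bid. Tested members had mean counts of 184.5 to 5555 per library, and whether depth or the number of cultures limits each comparison was not tested.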
